A study of Mus musculus with 16 samples.

Results

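The MHC class II genes and Ciita were followed across 8 groups of mouse bone marrow derived macrophages (BMDMs). They comprise H2-Aa, H2-Ab1, H2-Eb1, H2-DMa, H2-DMb1, H2-DMb2, H2-Oa, H2-Ob, Cd74 and Ciita, chosen by gene symbol, and all 10 were found among the 22287 genes of the count matrix. Bone marrow of C57BL/6J mice aged 8 weeks was grown over 7 days in GM-CSF at 20 ng/ml (GM) or in M-CSF at 50 ng/ml (M). The cells grew on dishes treated for tissue culture (TC) or on untreated dishes (noTC), and were then given vehicle (steady state) or 100 ng/ml LPS, an agonist of Toll-like receptor 4, for 3 h. Each of the 8 groups, GM-TC, GM-noTC, GM-TC-LPS, GM-noTC-LPS, M-TC, M-noTC, M-TC-LPS and M-noTC-LPS, held 2 libraries, or 16 in all. The labels number them as replicates and do not say whether they came from separate mice. In bulk RNA fewer cells of a type and less RNA per cell cannot be told apart.

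MHC class II molecules are heterodimers on antigen presenting cells that show peptides taken from ingested protein to CD4+ T cells. H2-Aa and H2-Ab1 encode the alpha and beta chains of I-A, and H2-Eb1 the beta chain of I-E. Cd74 encodes the invariant chain, which guides the dimers to the endosome and fills their groove. The DM dimer, made of H2-DMa with H2-DMb1 or H2-DMb2, exchanges the remnant of the invariant chain for peptide, and the DO dimer of H2-Oa and H2-Ob restrains DM. Ciita encodes the transactivator that switches the whole group on. It does not bind DNA itself but docks on the RFX, CREB and NF-Y factors that sit on the X and Y boxes of class II promoters.

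Promoter sequences were read for letters that some of these genes share. In RefSeq's sequences of the GRCm38.p6 assembly, 300 bases from 250 before to 50 after a start site, entries were matched for 7 of the 10 genes and not for H2-Ab1, Cd74 and Ciita. TGATTGG, the reverse of the CCAAT box that NF-Y recognises, was found in 6 of the 7 genes and in 7.82% of all 32851 promoters. AAC, letters found in the X box, followed by TGATTGG after 23 to 26 other bases, was found in the same 6 genes and in 0.460% of all promoters. GATGATGC, which lies between them and overlaps neither, was found in H2-DMb1, H2-DMb2 and H2-Eb1, or 3 of the 7, and in 0.703% of all promoters. Both strands were searched, the letters were chosen after the sequences had been read, and a match is a description and not a shown site. The H2-DMa windows held none of the 3. The 6 stretches are shown because they place the shared letters in the genes whose values follow, each read on the strand of its gene with AAC and TGATTGG in capitals:
H2-Aa: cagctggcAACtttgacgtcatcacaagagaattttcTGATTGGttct
H2-Eb1: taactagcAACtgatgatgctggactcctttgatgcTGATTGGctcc
H2-DMb1: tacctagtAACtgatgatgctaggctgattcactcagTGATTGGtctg
H2-DMb2: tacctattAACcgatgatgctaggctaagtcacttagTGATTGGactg
H2-Oa: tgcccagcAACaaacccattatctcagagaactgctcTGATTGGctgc
H2-Ob: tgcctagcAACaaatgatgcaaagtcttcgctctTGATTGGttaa
In GRCm38.p6 they lie at chr17:34287863-34287910 on the minus strand for H2-Aa, and on the plus strand at chr17:34305770-34305816 for H2-Eb1, chr17:34153091-34153138 for H2-DMb1, chr17:34145120-34145167 for H2-DMb2, chr17:34092297-34092344 for H2-Oa and chr17:34238812-34238856 for H2-Ob. The end of TGATTGG was 38 to 85 bases before the RefSeq start site. In GENCODE the genes H2-DMb1 and H2-DMb2 start at 34153072 and 34143307, so that their stretches lie inside the gene. By the GENCODE annotation of GRCm38 the 8 H2 genes lie together on chromosome 17, and Ciita on chromosome 16.

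Total counts per library lay between 17527802 and 31458363, and levels are given as CPM, counts normalised to the library size after scaling with edgeR's TMM factors. A gene with 3 counts stood between 0.0954 and 0.171 CPM at these depths, which covers counting error only. Of the 16756 genes with a count, 12514 passed the expression filter and were tested, and all 10 class II genes were among them, also when only the GM or only the M libraries were filtered. A gene was called at a BH-adjusted p under 0.05 from edgeR's quasi-likelihood test, adjusted over all genes tested. Upon LPS challenge the TMM factors were 0.778 to 0.842, comparing with 1.11 to 1.39 at steady state. With library size alone the median gene of the LPS comparisons stood at -0.53 on TC and -0.54 on noTC in GM, and at -0.83 on TC and -0.73 on noTC in M, on the log2 scale, beside -0.05, -0.03, -0.01 and -0.01 with TMM factors. The GM-TC pair differed most from each other, with a chi-square per degree of freedom over genes of 12.9 against 1.92 to 5.28 in the other 7 groups, and every result on GM-TC rests on it.

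GM-BMDMs expressed every class II gene above M-BMDMs. The 10 genes were all higher in GM in each of the 4 comparisons of growth factor, which asked how the cells differ at the same dish and treatment. The share of all tested genes called higher in GM was 32.6% on TC and 31.4% on noTC at steady state, and 33.9% on TC and 33.5% on noTC upon LPS challenge. The share called lower was 28.9% and 30.7%, and 32.9% and 32.6%. The median log2 fold change of the 10 genes was 2.60 (TC) and 3.41 (noTC), then 2.64 and 3.29 with LPS, beside 0.02, 0, 0.03 and 0.02 for all genes tested. Averaged over the 8 libraries of each growth factor, the M level was 9.57% of the GM level for H2-DMa, between 11.8% and 13.1% for H2-Eb1, H2-Aa, H2-Ab1, Cd74 and H2-Oa, 17.8% for Ciita, 21.2% for H2-Ob and 24.9% for H2-DMb1. It was 1.78% for H2-DMb2.

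**Figure D1:**
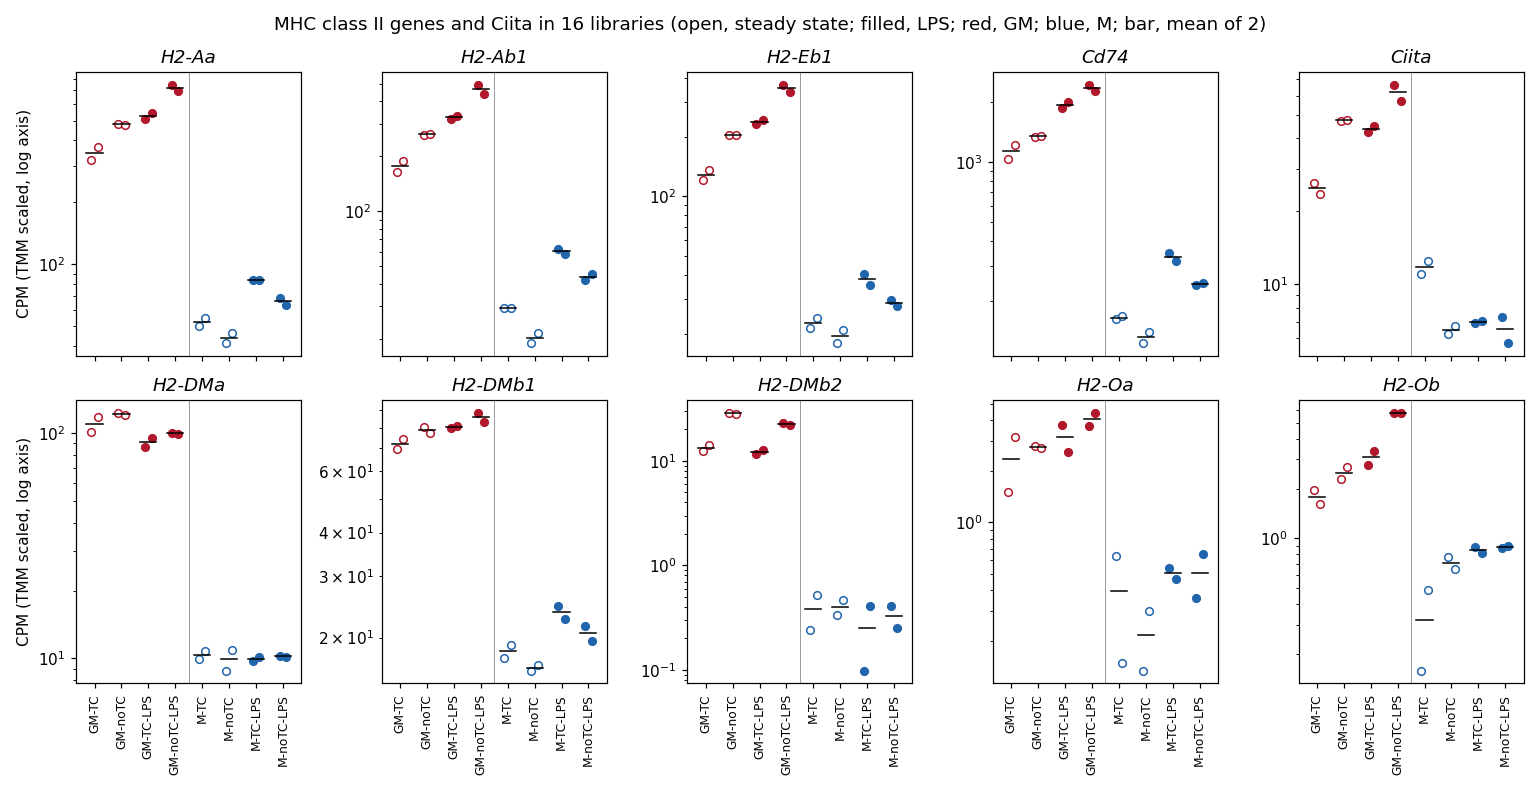
CPM (TMM scaled, log axis) of the 10 genes in the 16 libraries, by group. Circles are libraries (red GM, blue M, open at steady state, filled upon LPS challenge) and bars are means of 2. No M library reached a GM library of the same gene.

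The peptide binding chains were led by H2-Aa. For this gene GM-TC held 320.5 and 372.6 CPM, GM-noTC 481.3 and 475.9, GM-TC-LPS 507.7 and 546.6, and GM-noTC-LPS 746.1 and 698.0. Among M cells M-TC held 50.2 and 54.8 CPM, M-noTC 41.6 and 46.5, M-TC-LPS 83.5 and 83.7, and M-noTC-LPS 68.7 and 63.6. The M libraries thus lay below every GM library, and within each growth factor the LPS libraries lay above those at steady state. H2-Aa was 2.72 higher in GM-TC than in M-TC on the log2 scale (standard error 0.0747, adjusted p = 1.7e-18 from edgeR) and 3.44 higher in GM-noTC than in M-noTC.

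For H2-Ab1, its partner chain, GM-TC held 164.4 and 188.6 CPM, GM-noTC 263.5 and 264.1, GM-TC-LPS 321.6 and 334.7, and GM-noTC-LPS 494.0 and 440.3. Among M groups M-TC held 29.5 and 29.5 CPM, M-noTC 19.0 and 21.4, M-TC-LPS 62.0 and 58.5, and M-noTC-LPS 42.1 and 45.0. The order of the groups was that of H2-Aa, with M-noTC the lowest and GM-noTC-LPS the highest. H2-Eb1 ranged from 120.9 to 368.0 CPM over the 8 GM libraries and from 18.1 to 40.2 CPM over the 8 M libraries, so that these ranges did not overlap either.

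Cd74 was the most abundant of the group. Of this transcript GM-TC held 1037 and 1217 CPM, GM-noTC 1334 and 1350, GM-TC-LPS 1861 and 1995, and GM-noTC-LPS 2439 and 2260. For the invariant chain M-TC held 160.8 and 167.0 CPM, M-noTC 122.9 and 139.0, M-TC-LPS 345.5 and 316.6, and M-noTC-LPS 238.4 and 244.7. Per kilobase of transcript, the scale on which genes can be set side by side, Cd74 had 799 ± 90.3 CPM per kb in GM-TC (SD, n = 2), H2-Aa 307 ± 32.7, H2-Ab1 146 ± 14.1 and H2-Eb1 76.8 ± 6.23. This order, Cd74 above H2-Aa, H2-Ab1 and H2-Eb1, was the same in all 8 groups, and below them H2-DMb1 reached H2-Eb1 in M-noTC, at 11.68 ± 0.302 against 11.69 ± 1.20 CPM per kb.

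Ciita, the transactivator, was expressed below the classical chains, Cd74 and the DM chains in GM-TC, and above H2-Oa and H2-Ob, at 4.14 ± 0.327 CPM per kb in GM-TC (SD, n = 2). In M-TC, at 1.96 ± 0.166, it also stood above H2-DMb2, at 0.268 ± 0.141. For Ciita GM-TC held 26.3 and 23.5 CPM, GM-noTC 47.2 and 47.8, GM-TC-LPS 42.7 and 44.8, and GM-noTC-LPS 66.5 and 57.3. Its M values were lower, and M-TC held 11.1 and 12.5 CPM, M-noTC 6.199 and 6.712, M-TC-LPS 6.89 and 7.03, and M-noTC-LPS 7.34 and 5.74. M-TC was the highest M group and GM-TC the lowest GM group, so that on TC at steady state the fold between growth factors was smallest. Ciita was 1.07 higher in GM-TC than in M-TC (standard error 0.101, adjusted p = 4.43e-09 from edgeR), 2.87 higher in GM-noTC than in M-noTC, 2.65 higher in GM-TC-LPS than in M-TC-LPS and 3.24 higher in GM-noTC-LPS than in M-noTC-LPS on the log2 scale.

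Among the peptide editors, for H2-DMa GM-TC held 101.3 and 117.7 CPM, GM-noTC 123.4 and 119.9, GM-TC-LPS 86.6 and 95.7, and GM-noTC-LPS 100.5 and 99.2. In M it stayed between 8.83 and 10.9 CPM over the 8 libraries. The lowest and the highest of these were both M-noTC libraries. H2-DMb1, the common partner of DMa, ranged from 69.4 to 88.3 CPM in GM and from 16.1 to 24.6 CPM in M, the smallest gap between growth factors of the 10 genes by the share given above.

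For H2-DMb2, the other DM beta chain, GM-TC held 12.3 and 14.1 CPM, GM-noTC 29.0 and 27.9, GM-TC-LPS 11.7 and 12.8, and GM-noTC-LPS 23.1 and 22.3. In M it lay between 0.0984 and 0.524 CPM, or 2 to 20 counts a library. Its log2 fold change between growth factors was 5.09 on TC and 6.09 on noTC at steady state, the widest of the 10. In the 12 libraries other than GM-TC and M-TC, genes with at least 100 CPM in other libraries had a lowest level of 0.433% to 2.40% of it, depending on the library. In the M libraries among them this was 0.433% to 0.606%. It is a share of the mean of other libraries and not of the GM mean, and the source of the M counts of H2-DMb2 was not tested. With that lowest share subtracted, the H2-DMb2 fold was 6.25 on noTC and its call held. DMb2 made up 15.1% to 26.6% of the counts of the DMb pair in GM at steady state and 1.35% to 2.74% in M. The transcripts of H2-DMb1 and H2-DMb2 are identical at 75.3% of 1573 aligned positions with a run of 221 identical bases, and the estimated counts may have split reads between them, so these shares are uncertain.

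H2-Oa and H2-Ob, the DO chains, were the least abundant in GM per kilobase. H2-Oa lay between 1.52 and 4.43 CPM in GM and between 0.135 and 0.648 CPM in M. H2-Ob lay between 1.61 and 5.75 CPM in GM and between 0.160 and 0.898 CPM in M, where it had 4 to 28 counts a library. Their folds between growth factors, 2.62 for H2-Oa and 2.42 for H2-Ob on TC at steady state, had standard errors of 0.460 and 0.370.

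Upon LPS challenge the class II genes moved less than between growth factors. On TC dishes 7 of the 10 genes were called higher and 1 lower in GM, beside 32.8% and 34.2% of all tested genes. On noTC the GM counts were 6 and 2, beside 33.6% and 34.0%. In M they were 6 and 1 on TC, beside 37.6% and 36.4%, and 5 and 0 on noTC, beside 36.4% and 35.9%. Scaled by library size alone the split was 4 higher and 3 lower in both GM comparisons and 2 higher and 4 lower in both M comparisons. With that scaling the median gene of each LPS comparison was itself lower, as given above. The shares of all tested genes given here are those with TMM factors, so this split has no share beside it. The median log2 fold change of the 10 genes for LPS was 0.69 (TC) and 0.57 (noTC) in GM and 0.53 and 0.44 in M, beside -0.05, -0.03, -0.01 and -0.01 for all genes tested.

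Cd74 and H2-Ab1 rose in all 4 LPS comparisons under both scalings. Cd74 rose by 0.77 (TC) and 0.81 (noTC) in GM, and by 1.01 and 0.88 in M, on the log2 scale, and by 0.29, 0.30, 0.19 and 0.16 when scaled by library size. H2-Ab1 rose by 0.89, 0.82, 1.03 and 1.10, and by 0.41, 0.32, 0.20 and 0.37 when scaled by library size. H2-Aa rose by 0.60, 0.59, 0.67 and 0.58 with TMM factors, but with library size alone it was not called in any of the 4 and its fold in M-TC and M-noTC was -0.16 and -0.14. H2-Eb1 rose by 0.89 and 0.79 in GM-TC and GM-noTC under both scalings (0.41 and 0.28 with library size), and by 0.73 and 0.55 in M-TC and M-noTC only with TMM factors (-0.09 and -0.17 with library size).

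Among the DM and DO chains the directions were mixed. H2-DMa fell by 0.27 in GM-TC (standard error 0.0748, adjusted p = 0.00354 from edgeR) and by 0.28 in GM-noTC (adjusted p = 0.00176), while H2-Aa and Cd74 rose in the same libraries. The fall on TC was not called without GM-TC replicate 2 (adjusted p = 0.0767 from edgeR) or GM-TC-LPS replicate 1 (adjusted p = 0.0722). With library size alone the falls were -0.75 and -0.79. In M the H2-DMa fold was -0.07 on TC and 0.03 on noTC and was not called, while with library size alone it was -0.89 and -0.69 and was called lower (adjusted p = 4.05e-07 and 6.34e-06 from edgeR). H2-DMb1 rose by 0.37 in M-TC, 0.33 in M-noTC and 0.16 in GM-TC, and with library size alone its fold was -0.45, -0.40 and -0.32. The rise in GM-TC was not called without GM-TC replicate 1 (adjusted p = 0.116 from edgeR) or either GM-TC-LPS library (0.0747 and 0.131). In GM-noTC its fold was 0.12 with TMM factors, not called, and -0.38 with library size. H2-DMb2 fell by 0.33 in GM-noTC (adjusted p = 0.0132 from edgeR), a call lost without either GM-noTC library (adjusted p = 0.106 and 0.0562) or GM-noTC-LPS replicate 2 (0.0789), and its fold in GM-TC was -0.11, not called. With library size alone H2-DMb2 was called lower in both, at -0.83 in GM-noTC and -0.59 in GM-TC (adjusted p = 7.2e-07 and 0.000282 from edgeR). H2-Ob rose by 0.80 in GM on TC, by 1.19 in GM on noTC and by 1.36 in M on TC, and with library size alone only the second of these was called (0.32, 0.69 and 0.55). The H2-Ob call in GM-TC was lost without GM-TC replicate 2 (adjusted p = 0.086 from edgeR) or GM-TC-LPS replicate 2 (0.0942), and the one in M-TC without M-TC replicate 1 (0.119). In M-noTC the H2-Ob fold was 0.33, not called, and -0.39 with library size. H2-Oa was not called in any LPS comparison by edgeR with the expression filter and all 16 libraries. Its folds were 0.39 (TC) and 0.55 (noTC) in GM and 0.38 and 1.11 in M, of which those on TC were -0.09 in GM and -0.43 in M with library size. In GM-noTC it was called higher without the expression filter (adjusted p = 0.0378 from edgeR) and with the libraries of the comparison only (0.0203).

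**Figure D2:**
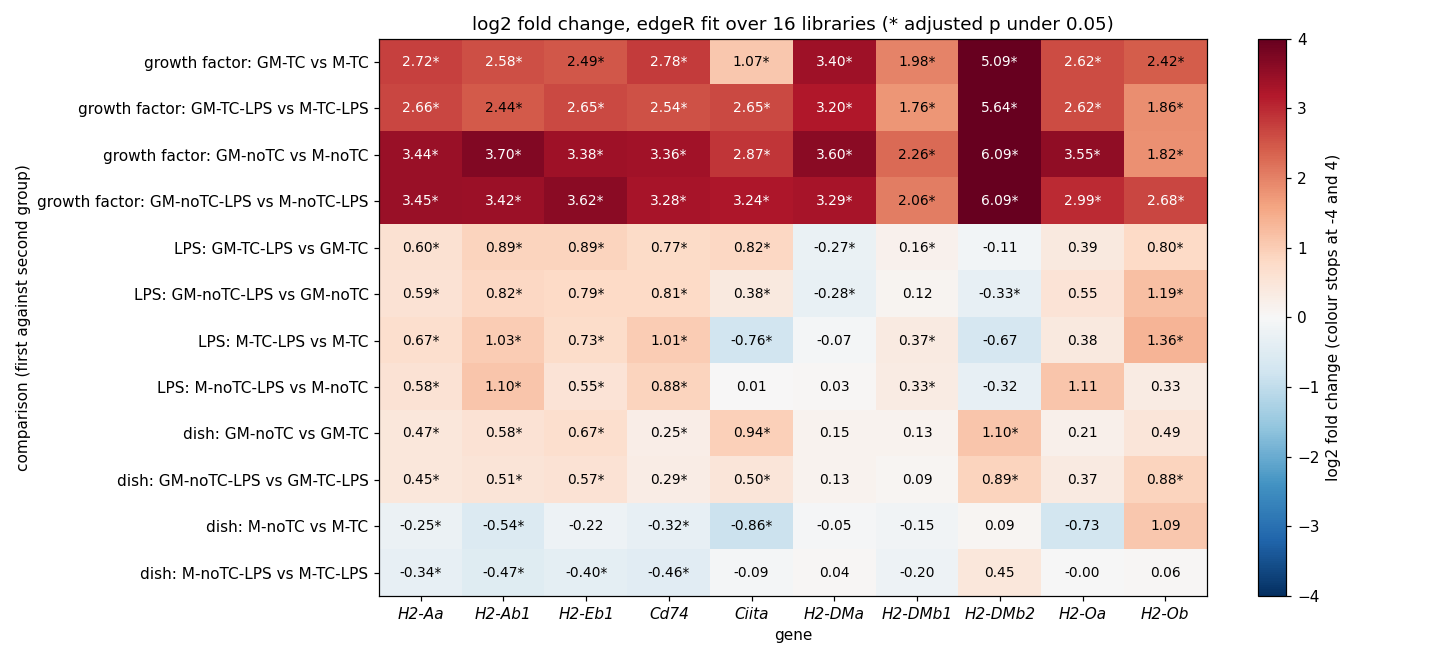
Log2 fold changes of the 10 genes (columns) in the 12 comparisons of 2 groups (rows), from the edgeR fit with TMM factors. Red is higher and blue lower in the first group, and an asterisk marks an adjusted p under 0.05. The 4 growth factor rows are red throughout, from 1.07 for Ciita to 6.09 for H2-DMb2, the 2 GM dish rows are red too, from 0.09 to 1.10, and the LPS rows and the M dish rows hold both colours.

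Ratios within a library do not depend on the scaling. H2-DMa had 25.2 to 31.6 counts per 100 of H2-Aa in the vehicle treated GM libraries and 13.5 to 17.5 in those given LPS. In M the ranges were 19.7 to 23.5 and 11.61 to 16.01. In both cell types the ranges of the 4 steady state and the 4 LPS libraries did not overlap. H2-Ab1 per count of H2-Aa stood at 0.506 to 0.555 and 0.612 to 0.662 in GM, and at 0.456 to 0.588 and 0.612 to 0.743 in M. Cd74 per count of H2-Aa stood at 2.77 to 3.27 and 3.24 to 3.67 in GM, and at 2.95 to 3.20 and 3.47 to 4.14 in M. Ciita per 100 counts of H2-Aa was 6.30 to 10.04 and 8.20 to 8.91 in GM, which overlap, and 14.4 to 22.7 and 8.25 to 10.7 in M, which do not.

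**Figure D3:**
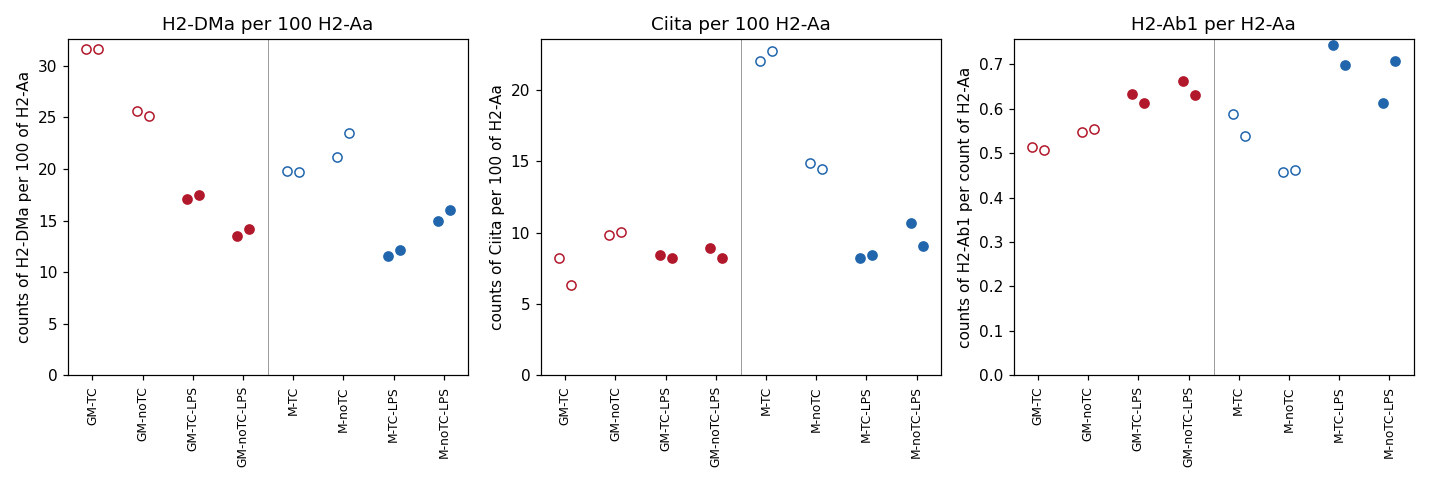
Counts of H2-DMa and Ciita per 100 counts of H2-Aa and of H2-Ab1 per count of H2-Aa in each library, by group (axes start at 0; red GM, blue M, open at steady state, filled upon LPS challenge). H2-DMa per 100 H2-Aa is 25.2 to 31.6 in open and 13.5 to 17.5 in filled red circles, and Ciita per 100 H2-Aa is highest in the M-TC libraries.

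Ciita responded to LPS in opposite directions in GM and M on TC. The LPS, dish and growth factor comparisons share libraries, so their values are set side by side and not counted as separate evidence. It rose by 0.82 in GM-TC (standard error 0.0892, adjusted p = 4.11e-08 from edgeR) and fell by 0.76 in M-TC (standard error 0.127, adjusted p = 1.43e-05), and both directions held with library size alone (0.34 and -1.58). The difference between these responses was 1.58 on the log2 scale (standard error 0.155, adjusted p = 2.83e-08 from edgeR). It was the 1 called of the 10 genes, beside 17.8% of all tested genes with a higher and 23.3% with a lower response in GM. The difference for Cd74 was -0.24, not called (adjusted p = 0.0559 from edgeR). It was called without the expression filter (adjusted p = 0.0129) and with the replicate block (0.0498). With library size alone the Cd74 difference was 0.107, not called, while H2-Eb1 at 0.502 and H2-Aa at 0.28 were called. H2-Aa, H2-Ab1, H2-Eb1 and Cd74 rose with TMM factors in M-TC-LPS, where Ciita fell.

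On noTC, Ciita rose by 0.38 in GM (adjusted p = 0.000267 from edgeR), while its fold was -0.13 with library size alone. In M on noTC its fold was 0.01 (adjusted p = 0.961 from edgeR), and -0.71 with library size. The difference between GM and M responses on noTC was 0.37 for Ciita and was not called (adjusted p = 0.0681 from edgeR). It was called at 0.59 with library size alone (adjusted p = 0.00569), without the expression filter (0.0334), with the lowest share subtracted (0.0492), without GM-noTC-LPS replicate 2 (0.0229) and without M-noTC-LPS replicate 1 (0.0216). H2-Ab1 was the 1 gene called there, with a rise smaller in GM by 0.27 (adjusted p = 0.0459 from edgeR), beside 19.3% of all tested genes called in that direction and 16.9% in the other. The H2-Ab1 difference was not called with library size alone (-0.058, adjusted p = 0.691 from edgeR) or with the lowest share subtracted (-0.265, adjusted p = 0.062). That call was lost without either GM-noTC library (adjusted p = 0.105 and 0.108 from edgeR), without GM-noTC-LPS replicate 2 (0.205), without M-noTC replicate 1 (0.256) and without either M-noTC-LPS library (0.0511 and 0.182).

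The LPS response of Ciita in M differed between dishes by 0.77 (adjusted p = 0.00944 from edgeR), the 1 call of the 10 genes beside 3.11% of all tested genes higher and 7.48% lower. Without M-noTC-LPS replicate 1 it was 0.58 and was not called (adjusted p = 0.108). In GM, with the expression filter and all 16 libraries, edgeR called none of the 10 genes for a difference of LPS response between dishes. The shares of all tested genes were 0.192% higher and 0.591% lower, and Ciita stood at -0.44 (adjusted p = 0.118 from edgeR). Without the expression filter Ciita was called at -0.43 (adjusted p = 0.0231 from edgeR). Over leave-one-out fits its difference lay between -0.547 and -0.333.

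The dish moved class II genes in opposite directions in GM and M. In GM on noTC 6 of the 10 genes were called higher than on TC and 0 lower, beside 4.69% and 2.85% of all tested genes. With LPS 7 were higher and 0 lower, beside 2.08% and 0.727%. In M 0 were higher on noTC and 4 lower at steady state, beside 16.1% and 11.1%, and with LPS again 0 and 4, beside 10.4% and 12.9%. The median log2 fold change of the 10 genes was 0.48 in both GM comparisons, -0.23 in M at steady state and -0.15 in M upon LPS challenge, beside 0 to 0.01 for all genes tested.

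Ciita led these changes at steady state in both cell types among the genes called in both. It was higher by 0.94 in GM-noTC (standard error 0.0873, adjusted p = 1.95e-07 from edgeR) and fell by 0.86 in M-noTC (standard error 0.114, adjusted p = 5.22e-06). H2-Ab1 moved with it, by 0.58 and -0.54, and H2-Aa by 0.47 and -0.25. The H2-Aa call in M was lost without M-TC replicate 2 (adjusted p = 0.19 from edgeR) or M-noTC replicate 1 (also 0.19). H2-Eb1 was higher by 0.67 in GM-noTC and stood at -0.22 in M-noTC, where it was not called (adjusted p = 0.0773 from edgeR). It was called lower there with DESeq2 size factors in edgeR (adjusted p = 0.0482), by DESeq2 (0.0496), without the expression filter (0.0372), with the lowest share subtracted (0.0465), with the libraries of the comparison only (0.032) and without M-noTC replicate 2 (0.0331).

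Cd74 was higher by 0.25 in GM-noTC and fell by 0.32 in M-noTC. With the libraries of the comparison only, Cd74 was not called in GM (adjusted p = 0.17 from edgeR). The Cd74 call in GM was lost without GM-TC replicate 1 (adjusted p = 0.134 from edgeR) or either GM-noTC library (0.14 and 0.158). H2-DMb2 was higher by 1.10 in GM-noTC, and H2-DMa by 0.15, which was not called (adjusted p = 0.254 from edgeR). H2-Ob had 0.160 and 0.486 CPM in M-TC against 0.775 and 0.650 in M-noTC, with a fold of 1.09 that was not called (adjusted p = 0.052 from edgeR). This rise, against the direction of the 4 called genes, was called without the expression filter (adjusted p = 0.0478) and, at 2.10, without M-TC replicate 2 (0.0138), and ranged from 0.52 to 2.10 over leave-one-out fits.

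Upon LPS challenge the dish effect on H2-Aa, H2-Ab1 and H2-Eb1 was 0.45, 0.51 and 0.57 in GM and -0.34, -0.47 and -0.40 in M. The H2-Eb1 call in M was lost without M-TC-LPS replicate 1 (adjusted p = 0.0643 from edgeR). Ciita was 0.50 higher in GM-noTC-LPS, while its fold in M was -0.09 and not called (adjusted p = 0.715 from edgeR). In GM-noTC-LPS H2-DMb2 was 0.89 higher. Cd74 was 0.29 and H2-Ob 0.88 higher there. These Cd74 and H2-Ob calls were lost without GM-TC-LPS replicate 1 (adjusted p = 0.293 and 0.31 from edgeR), GM-TC-LPS replicate 2 (0.0516 and 0.101) or GM-noTC-LPS replicate 1 (0.26 and 0.168), and that of H2-Ob also without GM-noTC-LPS replicate 2 (0.18).

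**Figure D4:**
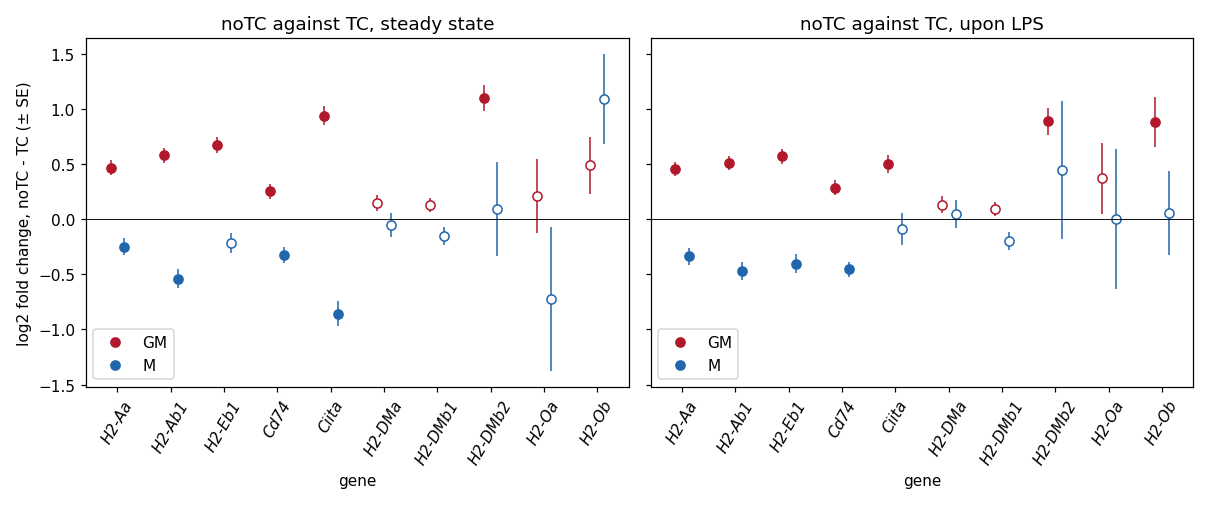
Log2 fold change of noTC over TC (± standard error) for the 10 genes in GM (red) and M (blue), at steady state on the left and upon LPS challenge on the right. Filled circles had an adjusted p under 0.05. H2-Aa, H2-Ab1, H2-Eb1 and Cd74 are above 0 in GM and below 0 in M in both panels, and Ciita runs from 0.94 in GM to -0.86 in M at steady state.

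The difference of the dish effect between GM and M was itself tested, in a comparison added after the values were seen. At steady state 5 of the 10 genes were called, all with the higher effect in GM, beside 4.82% of all tested genes called in that direction and 6.40% in the other. The differences were 1.80 for Ciita (standard error 0.143, adjusted p = 2.14e-08 from edgeR), 1.12 for H2-Ab1, 0.89 for H2-Eb1, 0.71 for H2-Aa and 0.57 for Cd74. Upon LPS challenge the 5 called genes were again these, beside 6.87% and 3.71%, with differences of 0.98 for H2-Ab1, 0.97 for H2-Eb1, 0.79 for H2-Aa, 0.74 for Cd74 and 0.59 for Ciita. The Ciita call (adjusted p = 0.0261 from edgeR) was lost with library size alone (adjusted p = 0.0783) and without GM-TC-LPS replicate 1 (0.0763), GM-noTC-LPS replicate 1 (0.0884), either M-TC-LPS library (0.0915 and 0.0831) or M-noTC-LPS replicate 2 (0.177).

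Across the 8 GM libraries the log2 level of Ciita correlated with H2-Eb1, H2-Aa and H2-Ab1 at Pearson's r = 0.942, 0.926 and 0.919, and with H2-DMa at -0.193. Across the 8 M libraries r was -0.186, -0.166 and -0.160 for the same 3 chains, and 0.352 for H2-DMa. These describe 8 libraries that share dishes and treatments and carry no test. Over all 16 libraries, among 7819 genes with a mean of 10 CPM or more, the genes outside the group most like Ciita were Ankrd13a (r = 0.983), Cyp4f18 (0.978), Cyb561a3 (0.977), Zfp609 (0.970) and Klk1b11 (0.967). Those most like H2-Aa were Ifitm1 (r = 0.995), Ecm1 (0.992), Btg1 (0.992), Hp (0.991) and Napsa (0.990).

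The DNA-binding partners of the transactivator were read over the same comparisons. Of the 7 genes of RFX, NF-Y and Creb1, 1 was called higher and 2 lower in GM-TC comparing with M-TC, beside 32.6% and 28.9% of all tested genes. Rfxank was 1.21 higher in GM, and Rfx5 and Creb1 fell by 0.75 and 0.42. Their median log2 fold change was -0.09. With LPS 4 were called higher and 2 lower in both GM-TC and M-TC. For all tested genes the called shares with LPS on TC dishes were 32.8% higher and 34.2% lower for GM cells. The matching shares for M cells were 37.6% higher and 36.4% lower. Rfx5 rose from 8.84 to 34.1 CPM in GM-TC and from 14.8 to 40.1 CPM in M-TC, and Rfxank fell from 24.2 to 8.33 and from 10.5 to 4.36 CPM. Between dishes in GM 0 of the 7 were called by edgeR, beside 4.69% and 2.85% of all tested genes higher and lower at steady state and 2.08% and 0.727% upon LPS challenge, so that 0 of 7 is near the share of all genes. In M 1 was higher on noTC (Nfya at 0.15) and 1 lower (Creb1 at -0.21) at steady state, beside 16.1% and 11.1%. With LPS 0 were higher and 2 lower, Nfya at -0.41 and Creb1 at -0.21, beside 10.4% and 12.9%.

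Of 13 regulators and signalling genes upstream of Ciita, 5 were called higher and 5 lower in GM-TC comparing with M-TC, beside 32.6% and 28.9% of all tested genes. Irf4, a transcription factor of the interferon regulatory family, was 3.76 higher in GM, at 63.5 against 4.68 CPM, and Socs1, an inhibitor of JAK signalling, was 2.43 higher. Bcl6, a repressor, fell by 2.25, and Irf1, a transcription factor induced by interferon-gamma, fell by 1.07. Upon LPS challenge 11 were called higher and 1 lower in GM-TC and in M-TC, beside 32.8% and 34.2%, and 37.6% and 36.4%. Irf1 rose by 4.52 in GM-TC and 3.93 in M-TC, and Socs1 by 3.53 and 6.81. Irf4 rose by 0.31 in GM-TC and fell by 1.20 in M-TC, while Ifngr2, an interferon-gamma receptor chain, was the 1 lower gene in GM-TC, at -0.13. These calls and folds use TMM factors, and the list was not tested with library size alone. On that scale the GM-TC mean of Irf4 went down upon LPS challenge, from 71.13 to 62.95 CPM. Those of Irf1 and Socs1 still went up, from 26.07 to 429.2 and from 5.97 to 50.38 CPM. Between dishes in GM 1 of the 13 was called at steady state, Jak2 at 0.35, and 1 upon LPS challenge, Irf8 at 0.31, beside 4.69% and 2.08% of all tested genes called higher. In M-noTC comparing with M-TC 1 was higher and 4 lower, beside 16.1% and 11.1%, with Prdm1, a repressor of Ciita, at -0.69 and Irf1 at -0.31. With LPS 2 were higher on noTC in M and 8 lower, beside 10.4% and 12.9%, with Irf8 at 0.36 and Bcl6 at -0.77.

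Of 9 genes of class II antigen processing and turnover found in the matrix, 5 were called higher and 1 lower in GM-TC comparing with M-TC. The shares of all tested genes were 32.6% and 28.9%. The cathepsins Ctsh, Ctsl, Ctsd and Ctss, proteases of the endosome, were 1.97, 1.95, 1.42 and 1.41 higher in GM, and Cd83, which stabilises class II at the surface, fell by 2.53. Upon LPS challenge 5 were higher and 1 lower in GM-TC, beside 32.8% and 34.2% of all tested genes. In M-TC 7 were higher and 0 lower, beside 37.6% and 36.4%. These calls use TMM factors, and the list was not tested with library size alone. On that scale the M-TC means of Ctss, Ctsl, Ctsd, Ctsh and Lgmn went down upon LPS challenge, that of Ctss from 3103 to 2106 CPM. Those of Cd83 and Sppl2a went up, from 57.05 to 201.9 and from 410.9 to 586 CPM. Cd83 rose by 3.03 in GM-TC and 2.65 in M-TC, Sppl2a, a protease that clears the invariant chain remnant, by 0.99 and 1.34, and Lgmn was the 1 lower gene in GM-TC, at -0.18.

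Markers of the cell types that could carry class II were read beside these values. The 7 macrophage markers summed to 37740 to 46550 CPM in GM libraries and to 19980 to 28100 in M. Nearly all of that sum was Lyz2, lysozyme, at 35480 CPM in GM-TC and 19350 in M-TC. Of the 7, 3 were called higher and 4 lower in GM-TC than in M-TC (median -0.38 on the log2 scale), beside 32.6% and 28.9% of all tested genes. Adgre1 and Csf1r, which encode F4/80 and the M-CSF receptor, stood at 221 against 824 CPM and at 842 against 2858. The 8 dendritic cell markers summed to 943.9 to 1113 CPM in GM and to 16.4 to 63.2 in M. Itgax, the CD11c gene, which macrophages can also express, made up most of that sum in GM, at 916 CPM in GM-TC and 15.5 in M-TC. Clec9a stood at 31.5 and 0.248 CPM in these groups and Ccr7 at 9.41 and 0.0374. Flt3, also on this list, had 0.161 and 0.0374 CPM, from mean counts of 3.5 and 1. The 6 B cell markers, of another cell type rich in class II, summed to 0.201 to 1.33 CPM in GM and 0.299 to 0.640 in M. Of the 7 dendritic cell markers tested, 6 were called higher in GM-TC than in M-TC, beside 32.6% of all tested genes. Xcr1 stood at 0.217 against 0.193 CPM in these groups. The part of these markers in the growth factor differences was not tested. Between dishes in GM 1 of those 7 was called higher at steady state by edgeR, Dpp4 at 1.38, beside 4.69% of all tested genes, and 0 upon LPS challenge, beside 2.08%. For the 7 macrophage markers in GM 3 were called higher on noTC and 0 lower at steady state, among them Adgre1 at 0.30. The shares of all tested genes were 4.69% and 2.85%. Upon LPS challenge 2 were higher and 0 lower, beside 2.08% and 0.727%. In M on noTC at steady state, where class II genes fell, 2 of the 7 dendritic markers tested were called higher and 0 lower, beside 16.1% and 11.1%. The 2 were Itgax at 1.60 and Ccr7 at 2.45, the latter at 0.234 against 0.0374 CPM, from mean counts of 8.5 and 1. Among those not called, from M-TC to M-noTC, Dpp4 went from 0.2855 to 0.1824 CPM and Xcr1 from 0.1932 to 0.1086. Clec9a, also not called, went from 0.2481 to 0.4164 CPM. Of the macrophage markers 1 was called higher and 4 lower in the same libraries, beside 16.1% and 11.1%, among them Mertk at -1.22, Csf1r at -0.36 and Lyz2 at -0.33. The part of these in the dish effect was not tested.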

How the data were processed

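The genes and gene lists were chosen with earlier results of these data known. Per the submitters' processing notes the authors used fastp 0.18.0, Bowtie2 2.2.8, HISAT2, StringTie 1.3.1 and RSEM, and the genome build is not given in the sources used here. The deposited values are RSEM expected counts per gene without normalization, which were rounded to whole counts. Values other than whole numbers made up 6.56% to 8.19% of genes, depending on the library. Groups were taken from the sample labels, and all 16 libraries entered 1 quasi-likelihood fit over 8 groups (edgeR 4.0.16 in R 4.3.3, limma 3.58.1) without a replicate block, after edgeR's expression filter with a minimum count of 10 and TMM scaling. The p-values were adjusted by the BH method over 12514 genes. They measure the spread between the 2 libraries of a group (biological coefficient of variation 4.75%), and an exact permutation test of 2 against 2 cannot go below p = 0.333. The replicates differed by more than counting noise in every group, most in GM-TC. The script was tested on simulated data. Standard errors were taken from the fold change and its F statistic.

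The genes named are the 10 class II genes, the genes of 3 lists on class II transcription, Ciita regulation and antigen processing, among them the called gene with the largest rise and fall on TC dishes, and the 5 genes with the highest correlation with Ciita and with H2-Aa (log2 CPM, prior count 2). Of the listed genes 3 were not found by symbol. The values of 1 listed gene are not reported here, and it stays in the counts of its list. Alternatives were DESeq2 1.42.0, DESeq2 size factors or library size alone in edgeR, no expression filter, the libraries of a comparison only, a replicate block, the lowest share of other libraries subtracted, a fold above 2 with an unadjusted p under 0.05, and leaving out each library in turn. With a library left out a group holds 1 library, which is assumed to vary like the others. The 2 comparisons of dish effects between growth factors were added after the values were seen. Transcript lengths came from GENCODE (GRCm38), used for lengths and gene positions only, and promoters from RefSeq.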

Additional observations from a re-analysis of the deposited data

Results flagged for a closer look

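For these genes a test of the difference between 2 effects passed an adjusted p of 0.05 in edgeR, and nothing further was tested. The LPS response of Ciita was higher in GM than in M on TC by 1.58 (adjusted p = 2.83e-08 from edgeR), and that of H2-Ab1 on noTC differed by -0.27 (adjusted p = 0.0459). The H2-Ab1 call was lost with library size alone, with the lowest share subtracted and in the leave-one-out fits given above. In M the LPS response of Ciita was higher on noTC than on TC by 0.77 (adjusted p = 0.00944 from edgeR). The dish effect was higher in GM than in M at steady state by 1.80 for Ciita, 1.12 for H2-Ab1, 0.89 for H2-Eb1, 0.71 for H2-Aa and 0.57 for Cd74. Upon LPS challenge the same difference was 0.98 for H2-Ab1, 0.97 for H2-Eb1, 0.79 for H2-Aa, 0.74 for Cd74 and 0.59 for Ciita. With 2 libraries a group, no library could be tested as standing apart from its group.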

How the results depend on the processing

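The growth factor differences kept their direction and all 10 calls under every alternative run, leave-one-out fits included (10 to 10). Scaling by library size alone changed LPS results most, and the calls of a rise with LPS for H2-Aa in all 4 comparisons, H2-Eb1 in M, H2-DMb1 in M and GM-TC, H2-Ob in GM-TC and M-TC, and Ciita in GM-noTC were lost with it, while none of these was lost with DESeq2 size factors in edgeR. The folds that changed sign with it were -0.32 for H2-DMb1 and -0.086 for H2-Oa in GM-TC, -0.38 for H2-DMb1 and -0.13 for Ciita in GM-noTC, -0.16 for H2-Aa, -0.091 for H2-Eb1, -0.45 for H2-DMb1 and -0.435 for H2-Oa on TC in M, and -0.14 for H2-Aa, -0.17 for H2-Eb1, -0.69 for H2-DMa, -0.40 for H2-DMb1, -0.392 for H2-Ob and -0.71 for Ciita in M-noTC. The LPS fold of Ciita in M-noTC, near 0, was -0.002 with the lowest share subtracted, -0.018 with the libraries of the comparison only, and -0.18 to 0.18 over leave-one-out fits.

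With a fold above 2 and an unadjusted p under 0.05, 0, 1, 3 and 1 genes passed in the LPS comparisons (GM on TC and noTC, then M on TC and noTC). In the dish comparisons of GM, GM upon LPS, M and M upon LPS 1, 0, 1 and 0 genes passed. The 1 gene in M was H2-Ob at 1.09, higher on noTC and not called by the adjusted p, and the 4 genes called lower there did not pass. By the same rule 0 genes passed for growth factor by LPS on noTC and for dish by LPS in M, and 3 and 0 for dish by growth factor at steady state and upon LPS. Among those 3 was H2-DMb2 at 1.01, not called by the adjusted p (0.186 from edgeR). The growth factor by LPS calls were 3 on TC and 3 on noTC with library size alone, 2 and 3 without an expression filter, and 3 on noTC with the libraries of the comparison only. Without the filter 1 gene, Ciita, was called for dish by LPS in GM. Leaving out 1 library gave 6 to 7, 7 to 8, 6 to 8 and 5 to 5 calls in the 4 LPS comparisons in that order, 5 to 7, 5 to 6, 3 to 5 and 3 to 4 in the 4 dish comparisons, 1 to 2 and 0 to 2 for growth factor by LPS on TC and noTC, 0 to 1 for dish by LPS in GM and in M, and 5 to 6 and 4 to 5 for dish by growth factor. Over those fits the LPS fold of H2-DMa lay between -0.125 and 0.001 on TC in M and between -0.087 and 0.221 on noTC, that of H2-Oa on TC between -0.002 and 1.052 in GM and between -0.329 and 1.722 in M, and the dish fold of Ciita in M upon LPS between -0.277 and 0.081.

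Libraries with the same replicate number did not deviate together (correlations across genes of -0.064 to 0.02), so the numbers are not taken as a pairing. With the replicate block 2 genes were called for growth factor by LPS on TC in place of 1, and no other count moved by more than 1.5 times. DESeq2 lost the calls of H2-DMb1 upon LPS in GM-TC, H2-DMb2 upon LPS in GM-noTC and H2-Ob between dishes in GM upon LPS (adjusted p = 0.0614, 0.0654 and 0.167). The cause of these changes was not tested. Depth limits H2-DMb2, H2-Oa and H2-Ob in M, where libraries held 2 to 28 counts.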
